A study of Mus musculus with 6 samples.

Results

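In mouse liver 7 genes were examined whose read counts part mice kept on chow with polyethylene microplastic (PE-MP) from mice on normal chow: Arhgap23, Dennd5b, Trip11, Lime1, 1810019D21Rik, Gm28035 and Gm49396. They were found by symbol, each on 1 row, among 56674 rows of the count table, and all 7 of the 7 passed the expression filter that left 18043 rows for testing. They were chosen because their levels separate the chows most clearly, so their levels, fold changes and lack of overlap describe the choice and carry no test here. By p in the edgeR fit, 6 of them stood at ranks 1, 2, 4, 5, 6 and 7 of all genes and Trip11 at rank 1658. The tests below are on other genes: their paralogs, their neighbours and the genes that work with them. Neighbours that share sequence with a member may not be separate from this choice.

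The animals of all groups were male C57BL/6 mice reared for 71 weeks, with 3 liver libraries from normal chow and 3 from chow containing PE-MP, and the question was whether prolonged exposure alters hepatic expression. The labels name no genetic change, dose, particle size, cage or batch, and do not say whether a library is 1 animal. The p-values therefore reflect only library-to-library spread, which may be technical. Libraries held 68357478 to 112566641 counts under normal chow, and 75176645 to 91898953 with PE-MP. The hepatocyte markers Alb, Apoa1, Apoa2, Ttr, Serpina1a, Fgb and Cps1 together reached 65417 to 85177 CPM (counts scaled to a common library size of 1e+06) under normal chow, and 70750 to 76440 with PE-MP. None of these was at 0. Libraries also differed in make-up: mitochondrially encoded mRNAs took 14.2% to 15.1% of counts under normal chow, and 8.63% to 9.19% with PE-MP. The 18S gene Rn18s-rs5 took 11.2% in normal chow library 2, against 0.334% to 5.98% in the other libraries. The part of these differences in the results below was not tested. In the edgeR fit 1642 genes were higher and 1591 lower under PE-MP chow at an unadjusted p under 0.05, with trimmed-mean (TMM) scaling factors, and 4542 and 393 with total counts in their place, which moved the median log2 fold change of all genes from 0.018 to 0.32.

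The 7 genes are of 3 kinds. Arhgap23, Dennd5b and Trip11 code for proteins of the cytoskeleton and the secretory pathway. Arhgap23 belongs to the RhoGAP family, which switch small GTPases off by speeding GTP hydrolysis. Dennd5b has a DENN domain, the module by which its family activates Rab GTPases, and it is known for chylomicron secretion in the intestine. Trip11 codes for GMAP-210, a golgin that tethers vesicles at the cis-Golgi, binds IFT20 and was first found as a partner of the thyroid hormone receptor. Lime1 codes for a membrane adaptor of lymphocytes that binds the kinases LCK and CSK. 1810019D21Rik is a long noncoding RNA, listed by RefSeq with the synonym Esrp2-as, for antisense of the splicing regulator Esrp2.

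Gm28035 and Gm49396 are read-through genes, whose transcripts run from one gene into the next. GENCODE M21 gives Gm28035 as 1 transcript of 4238 bases that starts in Lrrc8a, the essential subunit of the volume-regulated anion channel, and ends in Phyhd1, a dioxygenase gene. Gm49396 has 4 transcripts that join U2af1l4, a small-subunit splicing factor of the U2AF family, to Igflr1, a cell surface receptor gene. Of these transcripts, 1 of 1 and 3 of 4 are annotated as targets of nonsense-mediated decay, the pathway that degrades mRNAs with early stop codons. The windows below are shown because each holds letters that tell a read-through transcript from its 2 source genes. They hold 30 bases each, taken from the GENCODE transcripts of Gm28035 (bases 2841 to 2870) and the longest of Gm49396 (bases 877 to 906), 5′ to 3′, and 0 other genes of that annotation hold them. In the first, lower case marks the exon shared with Lrrc8a and capitals the exon that follows it, shared with Phyhd1. The second lies in capitals throughout, inside 61 bases of that transcript between the sequence shared with U2af1l4 and that shared with Igflr1. The other transcripts of Gm49396 were not searched for it.
Gm28035 junction: gtaacttagatctggCCCTGGAGCCATCGA
Gm49396 gap: CCACCCCCACACCTAAGAAAGGGTGTAAGC

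The share of sequence that each gene has to itself differed widely. Every transcript was cut into 50-base words, and a word was called shared where a transcript of another gene holds it on the same strand. For Gm28035, 93.6% of 4189 words were shared, 2806 with Lrrc8a and 1113 with Phyhd1. For Lime1, 86.0% of 2465 words were shared, all 2120 of them with Zgpat, the gene that overlaps it on the same strand. Gm49396 shared 66.1% of 3416 words, 1179 with Igflr1 and 1080 with U2af1l4. By contrast the shares were 0.558% for Arhgap23, 0.858% for Dennd5b, 0% for Trip11 and 0% for 1810019D21Rik. On the opposite strand 1810019D21Rik shared 4.52% of its words with Esrp2, and Dennd5b shared 8.88%, most of them with the noncoding gene Gm26540. How the authors' counting assigned reads that fit more than 1 gene is not given in the sources used here, so the counts of Gm28035, Gm49396 and Lime1 are uncertain as measures of those RNAs alone.

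The 7 genes were chosen because they part the chows, and shared control of them was not tested. The start regions that RefSeq gives for 4 of them are shown to describe where these genes start. They are the 250 bases before the start site on build GRCm38.p6, not the build of the counts. Those of Dennd5b and Trip11 are rich in the dinucleotide CG, with 28 and 20 copies, against 1 in Lime1, 5 in 1810019D21Rik and a median of 6 over 32851 such windows. Capitals mark matches to any of 7 motifs on either strand: the GC box GGGCGG, the CCAAT box, the TATA box with letters TATAAA, the E-box CACGTG, the cyclic AMP element TGACGTCA, the dioxin element TNGCGTG and the antioxidant element TGACNNNGC.
Dennd5b, chr6:149101681-149101930, minus strand: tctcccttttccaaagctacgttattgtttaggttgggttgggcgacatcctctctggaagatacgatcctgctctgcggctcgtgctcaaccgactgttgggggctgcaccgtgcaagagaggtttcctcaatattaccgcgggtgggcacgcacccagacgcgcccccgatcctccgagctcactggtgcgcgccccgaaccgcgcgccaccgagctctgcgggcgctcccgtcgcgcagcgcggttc
Trip11, chr12:101913172-101913421, minus strand: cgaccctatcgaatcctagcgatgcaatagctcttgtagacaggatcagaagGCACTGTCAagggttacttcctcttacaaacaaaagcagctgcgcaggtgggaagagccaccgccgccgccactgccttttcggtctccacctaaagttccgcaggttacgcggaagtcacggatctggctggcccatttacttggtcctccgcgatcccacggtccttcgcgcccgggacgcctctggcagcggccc
Lime1, chr2:181380985-181381234, plus strand: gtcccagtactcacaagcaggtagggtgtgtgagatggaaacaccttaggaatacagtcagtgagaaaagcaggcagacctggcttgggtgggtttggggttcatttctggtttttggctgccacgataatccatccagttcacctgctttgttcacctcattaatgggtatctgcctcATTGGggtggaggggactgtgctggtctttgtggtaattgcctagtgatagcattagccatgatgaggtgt
1810019D21Rik, chr8:106135150-106135399, plus strand: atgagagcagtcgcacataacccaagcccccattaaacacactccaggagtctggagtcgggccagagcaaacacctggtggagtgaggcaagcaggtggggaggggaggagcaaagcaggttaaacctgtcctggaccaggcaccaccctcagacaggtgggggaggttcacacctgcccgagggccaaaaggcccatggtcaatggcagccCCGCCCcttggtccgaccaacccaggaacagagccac

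No motif of the 7 was found in more than 1 of the 4 windows. That of Trip11 holds 1 antioxidant element, which 10.2% of all windows hold, that of Lime1 holds 1 CCAAT, which 33.8% hold, and that of 1810019D21Rik holds 1 GC box, which 32.7% hold. The window of Dennd5b holds 0 of the 7. A match is a run of letters and not a binding site, and a window without one says only that these letters are not in it. RefSeq windows for Arhgap23, Gm28035 and Gm49396 are not used here.

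Arhgap23 was counted 16, 17 and 33 times in normal chow libraries 1, 2 and 3 and 1632, 1172 and 1201 times in PE-MP libraries 1, 2 and 3. All PE-MP libraries lay far above all normal chow libraries. Scaled, the levels were 0.279 ± 0.0488 and 14.2 ± 3.05 CPM (SD, n = 3 per chow). The log2 fold change of PE-MP over normal chow was 5.67 ± 0.27 (SE), and the lowest PE-MP library stood 34.3-fold above the highest normal chow library.

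Dennd5b was counted 66, 125 and 96 times under normal chow, and 5545, 5293 and 10482 times with PE-MP. The chows did not overlap, and PE-MP library 3 was the highest, at 97.5 CPM against 58.6 and 64.6 in the other two. The levels were 1.32 ± 0.655 and 73.6 ± 20.9 CPM (SD, n = 3 per chow), with a log2 fold change of 5.81 ± 0.44 (SE). Per kilobase of longest transcript the level went from 0.135 to 7.48 CPM, which in the PE-MP libraries is the highest of the 3 cytoskeletal and secretory genes, ahead of Arhgap23 (2.45) and Trip11 (2.29).

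Trip11 was counted 0, 83 and 271 times under normal chow, and 2133, 1869 and 2402 times with PE-MP. It was the most even of the 7 genes within PE-MP chow, at 22.6, 22.8 and 22.3 CPM, and the most uneven within normal chow. The normal chow libraries stood at 0, 1.38 and 2.68 CPM, where the count of 0 in library 1 allows a level of up to 0.0428 CPM (3 counts, counting error only). The log2 fold change of 4.05 ± 1.26 (SE) had the largest error of the 7 genes. Of 8830 genes with a mean of at least 5 CPM over all 6 libraries, 4 had no count in normal chow library 1. In each other library 0 to 3 of them had none. Trip11 reached that mean through its PE-MP level, with means of 1.35 CPM under normal chow and 22.6 with PE-MP. These counts therefore do not say how often genes at its normal chow level had no count.

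Lime1 was counted 32, 25 and 38 times under normal chow, and 206, 227 and 405 times with PE-MP. The chows did not overlap, and per kilobase it was the lowest of the 7 genes in the PE-MP libraries, at 1.48 CPM. The levels were 0.416 ± 0.0408 and 2.90 ± 0.802 CPM (SD, n = 3 per chow; log2 fold change 2.81 ± 0.28, SE). Summed markers of lymphocytes, the cells known for the LIME protein, were not higher in the PE-MP libraries. The summed CPM of 12 T and NK cell markers was 7.30 to 12.2 under normal chow, and 4.84 to 8.15 with PE-MP, and that of 8 B and plasma cell markers 21.9 to 64.3 and 8.91 to 13.2. None of these markers was at 0 in all libraries. Much of the B and plasma cell sum was Jchain, at 13.1 to 40.5 CPM under normal chow and 0.539 to 4.09 with PE-MP. Of 11 tested T and NK cell markers 1 had a positive log2 fold change, Klrb1c (0.89 ± 0.33, SE). The part of these sums in the level of Lime1 was not tested. In whole liver, fewer cells of a type and less RNA per cell cannot be told apart.

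Per kilobase, 1810019D21Rik was the highest of the 7 genes under normal chow, at 19.1 CPM. It was counted 1444, 1204 and 1600 times there and 5087, 5916 and 6498 times under PE-MP chow. The levels of 18.8 ± 2.63 and 62.1 ± 9.32 CPM (SD, n = 3 per chow) give a log2 fold change of 1.72 ± 0.17 (SE), the smallest of the 7. In every PE-MP library it was above every normal chow library. Gm28035 was counted 120, 134 and 121 times and 1077, 991 and 1087 times (1.71 ± 0.518 and 11.2 ± 1.01 CPM; log2 fold change 2.71 ± 0.26, SE). Gm49396 was counted 174, 111 and 154 times and 1002, 682 and 1026 times (1.95 ± 0.490 and 9.49 ± 1.14 CPM; log2 fold change 2.28 ± 0.23, SE). For all 7 genes the lowest PE-MP library lay above the highest normal chow library, as it did for 14.2% of all tested genes, and the gap ran from 2.61-fold for 1810019D21Rik to that of Arhgap23. Together the 7 genes took 1699 to 2313 counts in the normal chow libraries and 16150 to 23101 in the PE-MP libraries.

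**Figure D1:**
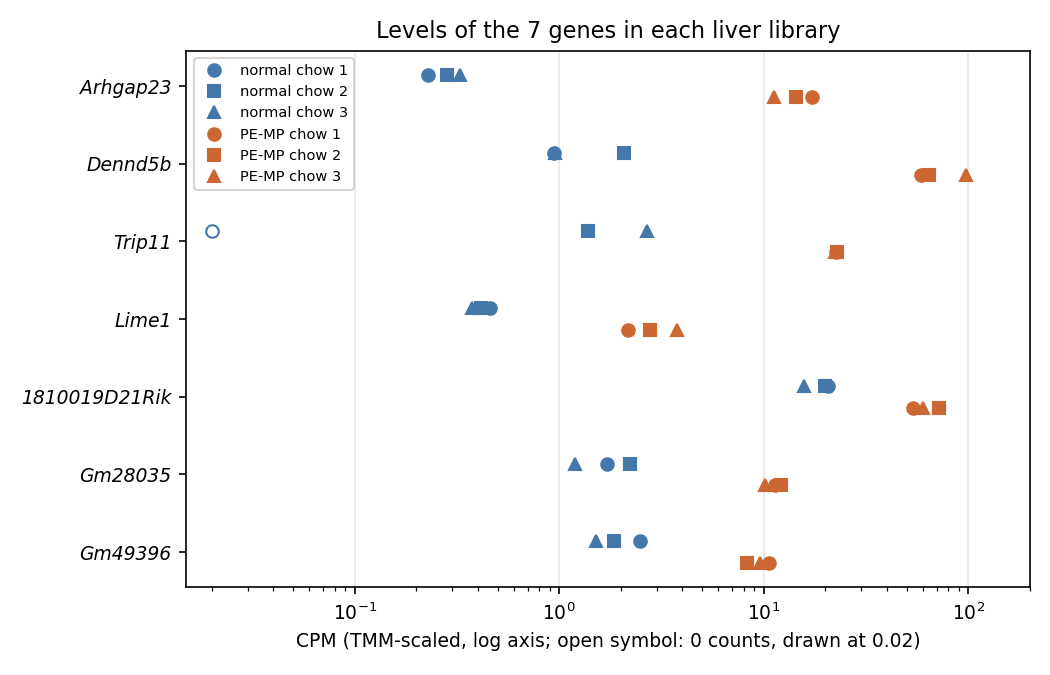
Levels of the 7 genes in CPM (log axis) in each of the 6 liver libraries, with 1 symbol per library (blue, normal chow; orange, PE-MP chow); the open symbol is the count of 0 for Trip11 in normal chow library 1, drawn at 0.02. The PE-MP symbols lie to the right of all normal chow symbols in each row, by 2.61-fold or more.

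The other Arhgap genes showed few differences between the chows. Of 33 other Arhgap genes, 29 were tested, and 1 was higher and 0 were lower under PE-MP chow at an unadjusted p under 0.05, which is 3.45% and 0% of them against 9.1% and 8.82% of all tested genes. Over all tested genes 0.00554% passed 0.05 by edgeR's adjusted p, which is Arhgap23 alone. It was chosen on this contrast, so its pass carries no test. Of the 29 paralogs 0 passed, the 1 higher gene included. The 1 gene was Arhgap4, a RhoGAP of blood cells, at 2.56 ± 0.342 and 4.22 ± 0.454 CPM (log2 fold change 0.72 ± 0.19, SE; edgeR unadjusted p = 0.00777, adjusted p = 0.161). The median log2 fold change of the paralogs was 0.16, that of all tested genes 0.018, and the range -0.84 to 2.35. This count depended on the libraries used. Dropping normal chow library 2 made it 6, where 14.7% of all tested genes were higher. Without PE-MP library 1 it was 3, where 6.19% were higher. Dropping either normal chow library 1 or library 3 of PE-MP chow made it 2, where 8.07% and 6.01% were higher. Total counts in place of TMM factors made it 7, where 25.2% of all tested genes were higher.

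The closest paralog, Arhgap21, was uneven within both chows. It was counted 105, 157 and 18 times under normal chow, and 1554, 151 and 369 times with PE-MP. PE-MP library 1 stood alone at 16.4 CPM, the other PE-MP libraries at 1.84 and 3.43, and normal chow libraries at 0.178 to 2.61, so the chows overlapped (log2 fold change 2.35 ± 1.17, SE; edgeR adjusted p = 0.347). Arhgap42 and Arhgap29 are named here because they were seen to be uneven. Arhgap42 had 577, 102 and 86 counts under normal chow, and 71, 63 and 1408 with PE-MP. Arhgap29 had 348, 2246 and 1273 and then 2177, 2443 and 1802. Among the 24 paralogs with a mean of at least 1 CPM in a chow, these 3 differed at least 5-fold between libraries of the same chow (CPM + 0.1), or 12.5%, against 5.62% of all 12981 such genes.

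Arhgap35, which codes for p190RhoGAP and had the highest level per kilobase among the paralogs, stood at 78.9 ± 8.69 and 91.4 ± 25.0 CPM (log2 fold change 0.21 ± 0.22, SE). Per kilobase, Arhgap23 went from 0.0480 to 2.45 CPM. That is from below to above Arhgap21 (0.194 and 0.984), and still under Arhgap35, which had 8.63 under normal chow. The next smallest p belonged to Arhgap31 (log2 fold change 0.46 ± 0.21), Arhgap19 (0.54 ± 0.26), Arhgap24 (-0.34 ± 0.17) and Arhgap17 (0.33 ± 0.17), none of them under 0.05.

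Dennd genes gave a different count. Of 15 paralogs of Dennd5b, all tested, 4 were higher and 0 lower at an unadjusted p under 0.05, or 26.7% and 0%, against 9.1% and 8.82% of all tested genes. Their log2 fold changes had a median of 0.13 and a range of -0.21 to 1.70. By edgeR's adjusted p, 0 passed. The 4 were Dennd6b, at 4.20 ± 0.107 and 7.10 ± 0.488 CPM (log2 fold change 0.76 ± 0.14, SE; edgeR adjusted p = 0.127), Dennd1c (1.27 ± 0.30), Dennd4b (0.77 ± 0.20) and Dennd2c (1.20 ± 0.31). Their family activates Rab GTPases. Their log2 fold changes lay between 0.76 and 1.27, against 5.81 for Dennd5b. With total counts in place of TMM factors the count was 7, where 25.2% of all tested genes were higher.

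Dennd5a, the closest paralog of Dennd5b and which binds RAB6 and activates RAB39, overlapped between chows. It was counted 1868, 1684 and 2459 times under normal chow, and 2795, 2383 and 3004 times with PE-MP, which is 26.3 ± 1.89 and 28.9 ± 0.838 CPM (log2 fold change 0.13 ± 0.11, SE, and 0.43 with total counts). Per kilobase it stood at 5.26 and 5.77 CPM, so Dennd5b was the lower of the pair in normal chow libraries (0.135) and the higher in PE-MP libraries (7.48). Dennd1b had the next smallest p and was uneven within PE-MP chow, with 137, 49 and 60 counts and then 242, 42 and 840. Dennd4a, with the highest CPM among the paralogs, stood at 37.7 ± 7.12 and 41.8 ± 1.40 CPM.

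**Figure D2:**
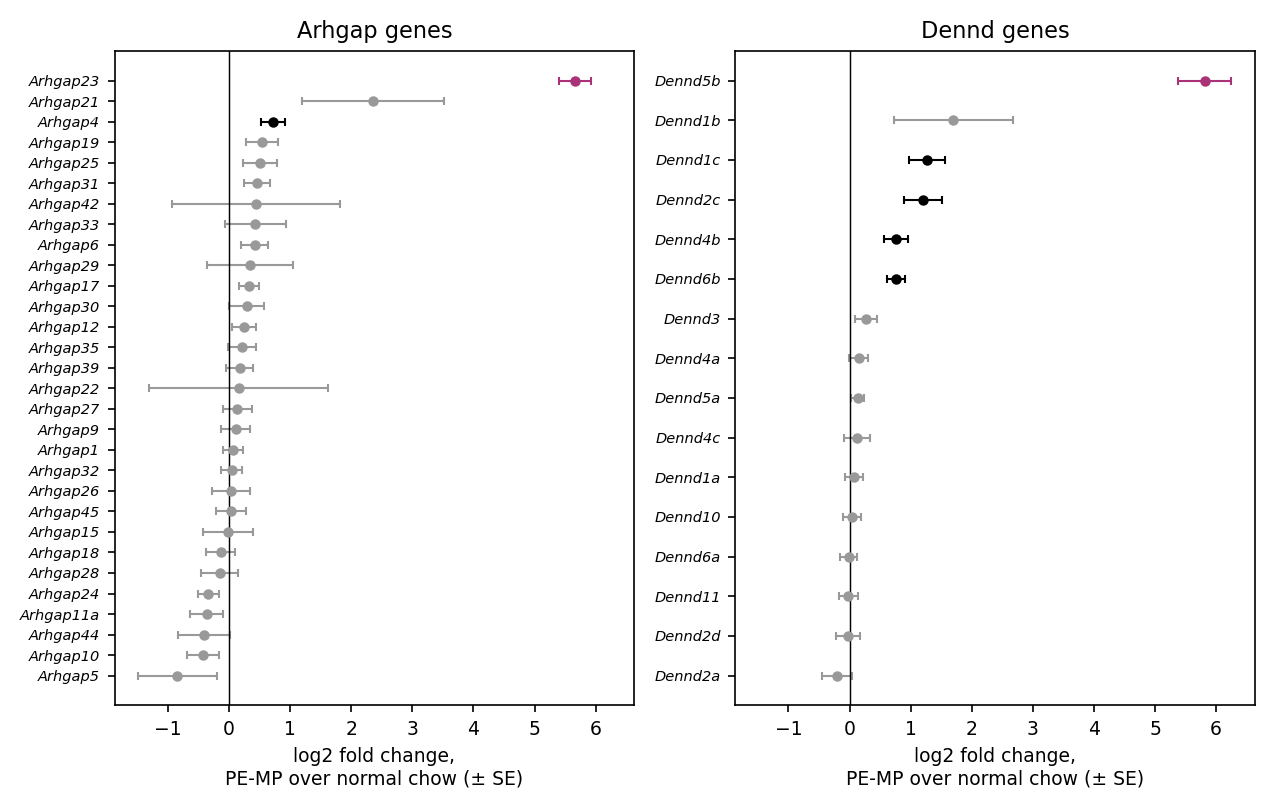
Log2 fold change of PE-MP over normal chow (horizontal axis, bars ± SE) for each tested Arhgap gene (left) and Dennd gene (right); purple, Arhgap23 and Dennd5b, which were chosen on this contrast; black, edgeR unadjusted p under 0.05; grey, the others. Arhgap23 at 5.67 and Dennd5b at 5.81 stand apart from their paralogs, which reach 2.35 (Arhgap21) and 1.70 (Dennd1b).

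Genes that share the RhoGAP domain but not the Arhgap name numbered 24, all tested, of which 6 were higher and 2 lower at an unadjusted p under 0.05, or 25.0% and 8.33%, with a median of 0.32. Over all tested genes the shares were 9.1% and 8.82%. The smallest p belonged to Racgap1, the RhoGAP of cytokinesis, at 0.812 ± 0.165 and 0.227 ± 0.0222 CPM (log2 fold change -1.84 ± 0.30, SE). None of these passed edgeR's adjusted threshold, and the 9 tested genes of other DENN proteins gave 0 in either direction, with Fnip2 (0.41 ± 0.25) and Sbf1 (0.20 ± 0.14) nearest.

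Golgi genes with which GMAP-210 and DENND5B work were next. Of 28 golgins and Golgi tethers 2 were higher and 0 lower at an unadjusted p under 0.05 (7.14% and 0%; median 0.12). The counts of this and the next lists stand against 9.1% higher and 8.82% lower over all tested genes. They were the trans-Golgi golgin Golga1 at 8.52 ± 1.73 and 14.0 ± 1.19 CPM (log2 fold change 0.72 ± 0.19, SE) and Cog8, a subunit of the conserved oligomeric Golgi complex (1.74 ± 0.47). Of 16 tested Golgi Rab GTPases 1 was higher, Rab2b (0.55 ± 0.22), and 1 lower, Rab1b (-0.47 ± 0.17), which is 6.25% each way, with a median of -0.07. Rab6a, which recruits several golgins, stood at 50.3 ± 3.34 and 48.9 ± 3.21 CPM. In the list of the COPII coat and lipoprotein export 2 of 16 were higher, Mia3 (0.37 ± 0.13) and Sec24b (0.49 ± 0.17), and 0 lower (12.5% and 0%; median -0.08).

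Ift20, the partner of GMAP-210 in intraflagellar transport, stood at 36.1 ± 6.04 and 31.8 ± 1.95 CPM. In the 17 genes of that transport 1 was higher, Ift88 (log2 fold change 0.59 ± 0.21, SE), and 1 lower, Ift27 (-0.63 ± 0.26), or 5.88% each way against 9.1% and 8.82% of all tested genes. Among 11 thyroid hormone receptors, cofactors and hepatic targets 1 was higher and 3 lower (9.09% and 27.3%; median -0.34). The receptor gene Thrb was at 1.34 ± 0.890 and 4.57 ± 0.901 CPM (1.78 ± 0.46), and the corepressor gene Hr had the smallest p on the lower side (-1.62 ± 0.37). In the list of lymphocyte adaptors and Src kinases, where Lime1 acts, 0 of 14 tested were higher and 1 lower (7.14%), Zap70 (-1.63 ± 0.57), followed by Gab2 (0.36 ± 0.18). Lck stood at 1.28 ± 0.571 and 1.08 ± 0.262 CPM. Of all genes in these 8 lists, 0 passed 0.05 by edgeR's adjusted p.

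The loci of the overlapping genes differed in how their counts were divided. At the Gm49396 locus, U2af1l4 was counted 666, 367 and 891 times under normal chow, and 321, 233 and 303 times with PE-MP, the reverse of Gm49396. The fitted change of U2af1l4 was -1.43 ± 0.22 on the log2 scale (SE; edgeR adjusted p = 0.109). It kept this direction in all 14 other settings run. The 2 genes together reached 10.1 ± 2.03 CPM under normal chow, and 12.5 ± 1.42 with PE-MP (SD, n = 3 per chow), and their summed levels overlapped between chows. Of their summed counts Gm49396 took 19.6% ± 4.36 under normal chow, and 75.8% ± 1.33 with PE-MP. Igflr1, whose sequence Gm49396 also contains, was counted 8, 0 and 0 times and then 0, 0 and 5 times. Psenen, a gamma-secretase subunit gene that overlaps on the opposite strand, had a log2 fold change of -0.52 ± 0.15, and that value was -0.22 with total counts.

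At the Gm28035 locus both source genes had higher CPM than the read-through gene in every library, Lrrc8a by less under PE-MP chow. Lrrc8a stood at 25.5 ± 3.11 and 17.8 ± 1.80 CPM (log2 fold change -0.52 ± 0.15, SE; edgeR adjusted p = 0.173; -0.22 with total counts), and Phyhd1 at 59.6 ± 7.68 and 53.1 ± 4.98 CPM. Summed with Gm28035 they reached 86.8 ± 10.3 and 82.1 ± 4.24 CPM, and Gm28035 took 2.04% ± 0.863 of these counts under normal chow, and 13.7% ± 1.92 with PE-MP. The sums overlapped between chows. The shares of both read-through genes follow from how these genes were chosen and are given as a description only.

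At the Lime1 locus the neighbours were on the higher side as well. Zgpat, a zinc finger repressor gene that holds all of the shared words of Lime1, was counted 474, 332 and 532 times and then 1021, 735 and 1159 times (5.85 ± 0.807 and 10.2 ± 1.05 CPM; log2 fold change 0.80 ± 0.17, SE; edgeR adjusted p = 0.129). Slc2a4rg-ps, the pseudogene next downstream on the same strand, was counted 12, 9 and 18 times and then 88, 104 and 213 times. Its change of 3.06 ± 0.37 on the log2 scale (SE; edgeR adjusted p = 0.0724) was as large as that of Lime1, and PE-MP library 3 was the highest for both. Lime1 took 6.66% ± 0.339 of the counts of Lime1 and Zgpat under normal chow, and 22.1% ± 4.74 with PE-MP. Arfrp1, upstream on the other strand, had a log2 fold change of 0.26 ± 0.14.

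The tested neighbours of 1810019D21Rik, Arhgap23, Trip11 and Dennd5b overlapped between chows. Esrp2, on the strand opposite 1810019D21Rik, was counted 4192, 2206 and 4427 times and then 4805, 4646 and 7011 times, with overlap between chows (46.8 ± 11.9 and 57.6 ± 7.22 CPM; log2 fold change 0.30 ± 0.20, SE). Next to it Nfatc3 had a value of 0.066 ± 0.11 and Pla2g15 one of -0.18 ± 0.23. Around Arhgap23, Socs7 had one of -0.35 ± 0.24, Srcin1 0.17 ± 0.56 and the overlapping antisense gene 4933428G20Rik -0.59 ± 0.70, with 8 to 26 counts in all libraries. Around Trip11, Atxn3 stood at 11.2 ± 4.02 and 14.1 ± 0.969 CPM, Fbln5 at 5.02 ± 1.64 and 3.75 ± 0.956, and Gm20036, which overlaps it on the other strand, at 0.298 ± 0.0545 and 0.370 ± 0.142. Of the small genes within Dennd5b, Gm49058 had 6 to 35 counts and Gm15779 had 2 to 19. Of the other flanking genes Dolk, Lin37 and 1700084E18Rik had an edgeR unadjusted p above 0.05, and Kmt2b, a histone methyltransferase gene beside Gm49396, was higher at 17.5 ± 3.11 and 28.1 ± 1.57 CPM (0.69 ± 0.16, SE; edgeR adjusted p = 0.139).

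**Figure D3:**
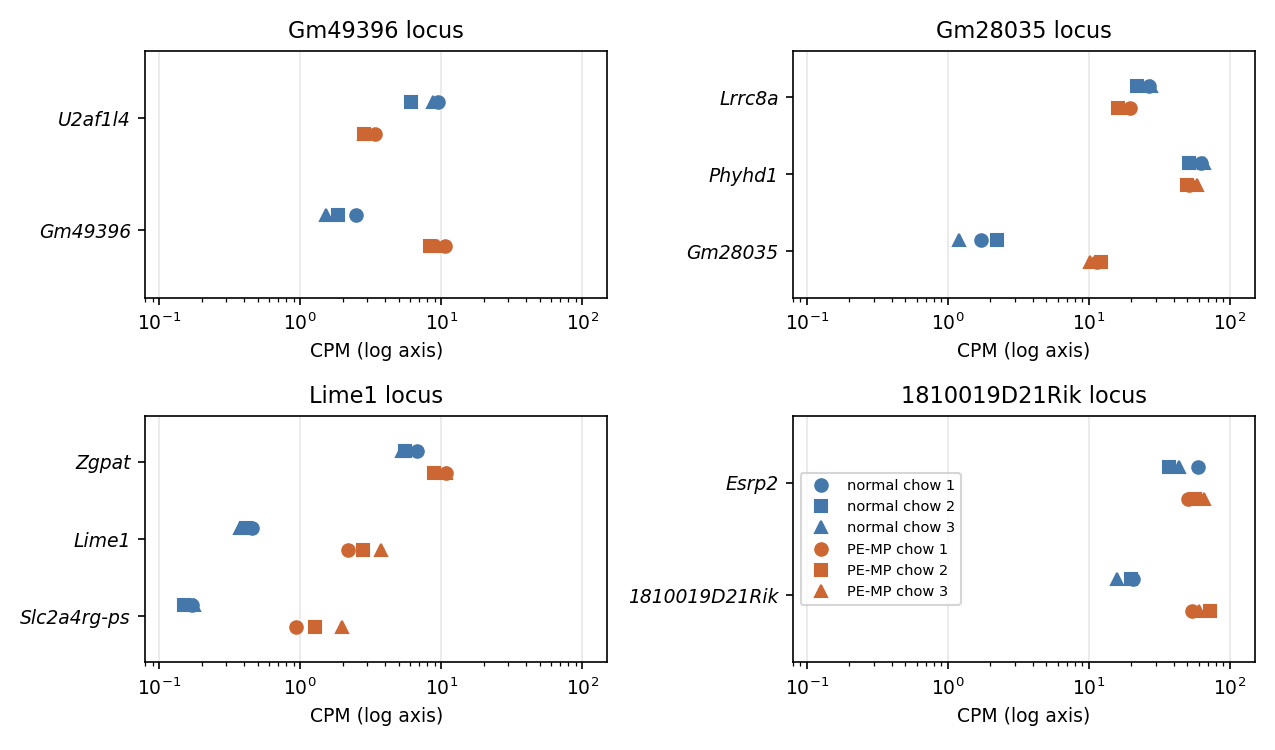
Levels in CPM (log axis) of overlapping or adjacent genes at 4 loci, with 1 symbol per library (blue, normal chow; orange, PE-MP chow). U2af1l4 lies lower under PE-MP chow where Gm49396 lies higher, Phyhd1 and Lrrc8a lie above Gm28035, with Lrrc8a closest to it in the PE-MP libraries, Zgpat and Slc2a4rg-ps lie on the higher side with Lime1, and the Esrp2 libraries of the chows overlap.

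Since 2 of the 7 genes are read-through genes, all other such genes were listed: those whose every transcript carries the read-through tag in GENCODE M21. This list was made after the values were seen and carries no test. Without Gm28035 and Gm49396 it held 246 genes in the table, of which 86 passed the expression filter; 14 of these were higher and 1 lower at an unadjusted p under 0.05, or 16.3% and 1.16%, against 9.1% and 8.82% of all tested genes. The median log2 fold change was 0.16, and the range ran from -4.21 to the value of Gm45062, which had no count under normal chow. Gm36995, named after its values were seen, at 0.293 and 1.60 CPM, was the next by p after the 2 members. The list was also uneven within chows: with the 2 members back in, 19 of 50 genes with a mean of at least 1 CPM in a chow differed at least 5-fold between libraries of the same chow, or 38.0%, against 5.62% of all genes. Gm28035 and Gm49396 were not among the 19.

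**Figure D4:**
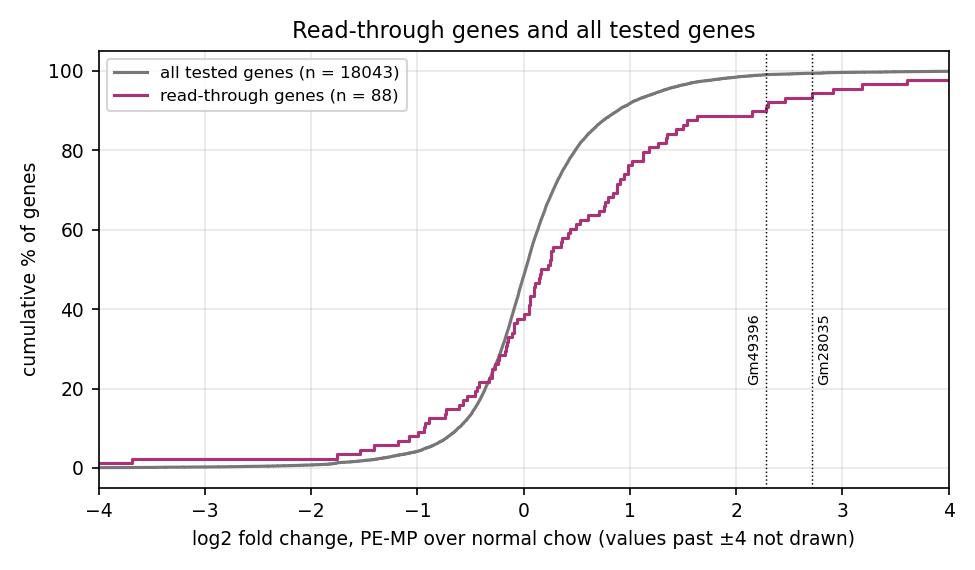
Cumulative percentage of genes (vertical axis) against log2 fold change of PE-MP over normal chow (horizontal axis) for the 88 tested read-through genes (purple) and all 18043 tested genes (grey); dotted lines mark Gm49396 at 2.28 and Gm28035 at 2.71. The purple curve is wider on both sides and lies to the right of the grey one above a change of 0.

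Of 5 tested RNAs that stay in the nucleus, a list made after the values were seen, 1 (Rian) was higher at an unadjusted p under 0.05 and 0 were lower, against 9.1% and 8.82% of all tested genes. The summed level of Malat1, Neat1, Meg3, Rian, Mirg and Kcnq1ot1 was 208, 488 and 171 CPM in normal chow libraries 1, 2 and 3 and 700, 536 and 389 CPM in the PE-MP libraries. The 2 ranges overlapped through normal chow library 2. Markers of Kupffer cells summed to 99.7 to 136 CPM under normal chow, and 141 to 233 with PE-MP, and none of the 8 was at 0. Markers of sinusoidal endothelium summed to 126 to 153 and 166 to 212 CPM, those of neutrophils to 1.18 to 1.81 and 3.10 to 4.11 (Ly6g at 0), of stellate cells to 307 to 321 and 159 to 311, of bile duct cells to 12.4 to 27.1 and 19.5 to 24.5, and of fat cells to 6.66 to 17.8 and 3.73 to 5.83 (Lep at 0). Intestinal and pancreatic markers summed to 65.9 to 111 and 65.1 to 81.1 CPM, with Cdx2, Cpa1, Ins2 and Prss2 at 0 in all 6 libraries. At an unadjusted p under 0.05, where 9.1% of all tested genes were higher and 8.82% lower, 5 of 8 Kupffer cell, 1 of 8 endothelial and 3 of 4 tested neutrophil markers were higher and 0 lower. On the other side 3 of 8 stellate cell, 5 of 8 B and plasma cell, 2 of 3 tested fat cell and 1 of 7 hepatocyte markers were lower and 0 higher. Of 11 tested T and NK cell markers 1 was higher and 2 were lower, and of the bile duct, intestinal and pancreatic markers 0 passed in either direction. In these lists 0 passed the adjusted threshold by edgeR. The part of these shifts in the levels of the 7 genes was not tested.

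For each gene the 3 genes with the most similar pattern were taken by Pearson correlation of log2 CPM over the 6 libraries, which fall into the same 2 chows and share depth and scaling. These coefficients lay between 0.992 and 0.999 and describe the likeness only. They were Gm49066, 9930104L06Rik and Catsperg1 for Arhgap23, Pla2r1, Gm44401 and Gm16534 for Dennd5b, and 2010315B03Rik, Adam33 and Gm14321 for Trip11. For Lime1 they were D030055H07Rik, Gm10814 and its own neighbour Slc2a4rg-ps, and for 1810019D21Rik Lrfn4, Pigc and 2900005J15Rik. For Gm28035 they were Gm7162, Mybl2 and Cntrob, and for Gm49396 Plekhn1, Prkag2os2 and Gm24644. The coefficients take no account of the size of a change. The log2 fold changes of these similar genes ran from 0.22 for Pigc to 7.65 for Catsperg1. Some had low levels, such as Catsperg1 at 0 CPM under normal chow and 0.291 with PE-MP.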

How the data were processed

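Total liver RNA was poly(A)-selected and made into directional libraries, per the labels' protocols. The deposited table holds raw counts per gene and library, which the authors made on build GRCm39 after bcl2fastq, per the submitters' processing notes. The aligner, counter and annotation, and whether strand was used, were not given in the sources used here.

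Counts were tested over the whole table with edgeR 4.0.16 in R 4.3.3 (TMM factors, default expression filter, robust quasi-likelihood fit, Benjamini-Hochberg adjustment). The fit was also run on counts simulated from its own estimates with planted changes, which is no test of the results here. Alternatives used DESeq2 1.42.0, limma 3.58.1, other factors and filters, a replicate block, and each library left out. CPM are counts scaled by TMM to a library size of 1e+06.

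Genes named were the 7; of each paralog family the 5 with the smallest p, the closest and the highest; 2 per role list; neighbours; and the most similar genes. Some results are not reported here. The members and lists were chosen with earlier results of these data known. The nuclear RNA list and the read-through list were made after the values were seen. Gene types, transcripts and neighbours came from GENCODE M21 (GRCm38), and promoters from RefSeq (GRCm38.p6). Neighbours and overlaps were found by GENCODE M21 coordinates, which are not on the build of the counts. The floor of 3 counts covers counting error only, while the SD and SE values also hold spread between libraries.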

Additional observations from a re-analysis of the deposited data

How the results depend on the processing

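Genes with an edgeR adjusted p under 0.05 numbered 1 as reported, 3 with RLE factors, 15 with limma-voom, 22 with a stricter filter, 23 with no filter, 1086 with DESeq2 and 10 with total counts. Total counts were chosen as an alternative after seeing the data. Leaving out 1 library gave 1 to 1075, the highest without normal chow library 2. At an unadjusted p under 0.05 the genes higher were 1082 (without PE-MP library 2) to 2793 (without normal chow library 2), and 4542 with total counts. The genes lower were 1013 (without normal chow library 3) to 2603 (without normal chow library 2), and 393 with total counts. Arhgap paralogs higher numbered 1 to 6 when 1 library was left out and 7 with total counts. Over all tested genes the shares higher were 5.72% to 14.7% and 25.2% in these fits. Dennd paralogs higher numbered 4 to 5 when 1 library was left out, 3 with the stricter filter and 7 with total counts.

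The labels do not say that replicate numbers pair the libraries. Deviations of same-numbered libraries correlated at 0.0027, 0.040 and 0.14, and those of other pairs at -0.148 to 0.120. With 3 libraries per chow these values cannot settle whether libraries are paired. With a replicate block 0 genes passed the adjusted threshold, 1503 were higher and 1345 lower at an unadjusted p under 0.05, and 1 Arhgap and 4 Dennd paralogs were higher.

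The direction of the 7 genes held in every setting run, which follows from how they were chosen and is no test of them. Trip11 moved to 5.94 with limma-voom. With total counts the log2 fold change was 5.96 for Arhgap23, 3.12 for Lime1, 2.03 for 1810019D21Rik and 2.58 for Gm49396. Total counts turned the direction of Cdc42 (0.038), Dolk (0.27), Ift20 (0.12), Lck (0.070), Lin37 (0.047), Phyhd1 (0.14), Pla2g15 (0.12) and Rab6a (0.26). With 1 library left out Dolk ran from -0.11 to 0.021 (positive when either library numbered 1 was dropped), Gm49058 from -0.038 (PE-MP library 2 dropped) to 0.88, Lck from -0.47 to 0.17 (normal chow library 2 dropped) and Srcin1 from -0.59 (PE-MP library 1 dropped) to 0.55. Srcin1 also turned with limma-voom (-0.12) and with the replicate block (-0.092). Over the other named genes, an unadjusted p under 0.05 of the edgeR fit was lost 48 times with 1 library left out. It was lost 27 times in other settings. A p under 0.05 was gained 14 and 16 times, and the call stayed the same 461 and 618 times. The cause of these shifts was not tested.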

Other observations

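Other genes parted the chows by as much, and are named here after their values were seen. Among genes with a mean of at least 1 CPM in a chow, no overlap and a log2 fold change of at least 4 in size, 7 were higher, with Arhgap23, Dennd5b and Trip11 among them, and 7 lower under PE-MP chow. Kidins220, a neurotrophin receptor scaffold, was counted 13, 15 and 29 times under normal chow and 2956, 489 and 3777 times under PE-MP chow (log2 fold change 6.64 ± 0.80, SE). Vps13d, a lipid transfer protein gene, was counted 4268, 797 and 3978 times and then 127, 77 and 105 times (-5.12 ± 0.62, SE). The kinase gene Camk1d was counted 994, 15 and 848 times and then 17, 20 and 20 times, so normal chow library 2 lay beside the PE-MP libraries, at 0.250 CPM against 0.180 to 0.244. Peg3, an imprinted gene, was counted 7, 16 and 3 times and then 64, 40 and 613 times.

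Of the lower genes 3 were immunoglobulin variable genes, Ighv1-72, Igkv3-5 and Igkv6-32. The B and plasma cell markers were lower as well: 5 of 8 had an unadjusted edgeR p under 0.05 on the lower side and 0 on the higher side, against 8.82% and 9.1% of all tested genes, and 0 passed the adjusted threshold.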
